A study of Mus musculus with 32 samples.

Results

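Macrophages are phagocytes that live in nearly every tissue, where they clear dead cells and debris, sample pathogens and tune repair. The 10 genes described here are transcripts that macrophages are known for: Cd68, Ctss, Lyz2, C1qa, C1qb, C1qc, Adgre1, Csf1r, Clec4f and Marco, out of the 55401 gene identifiers in the count tables. All 10 matched 1 identifier each on GRCm38. They were chosen on earlier results of the same libraries, in which these genes lay above control in muscle and below control in liver of the COX10 KO mouse. The KO effects in muscle and in liver, and the difference between them, therefore describe the chosen genes. Where the fit across all genes called a member in them, the call is given beside the share of all genes called, and it is not evidence for the members. The levels in CTL tissues rest on CTL libraries that also entered the choice and are likewise a description. The tests are on what the choice did not use, namely the KO effect in hypothalamus and the sexes.

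COX10 is an assembly factor of mitochondrial cytochrome c oxidase. Mice homozygous for a floxed Cox10 allele were crossed with mice carrying Cre in the Myl1 locus (Myl1 tm1(cre)Sjb), so that COX10 was to be lost from skeletal muscle alone, and liver and hypothalamus were to keep the gene. The COX10 KO was compared with control mice (CTL) of the C57BL/6 strain at 200 days of age. Calf muscle and liver had 6 CTL and 6 COX10 KO libraries each, with 3 females and 3 males per group as labelled, and hypothalamus had 4 and 4, all males. The labels name the controls without listing their alleles, and they do not say whether samples shared an animal, so p-values measure the spread between these samples. Each library was a bulk extract. A change in the number of macrophages, in the RNA per macrophage or in the RNA of other cells can therefore not be told apart.

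The libraries held 434494 to 11404800 counts in muscle, 674311 to 16044634 in liver and 3526613 to 22321322 in hypothalamus. Muscle fibre markers summed to at least 56260 CPM (counts scaled to a common total per library) in every muscle library, hepatocyte markers to at least 80490 CPM in every liver library and neuron markers to at least 3472 CPM in every hypothalamus library, so the tissues matched their labels. Cox10 itself was at 108 ± 41.1 CPM in muscle of CTL and at 115 ± 16.2 CPM in that of the COX10 KO (SD, n = 6 each). The reads come from the 3′ end of the transcript, and whether that end lies outside the deleted part is not given in the sources used here, so these counts are no check of the deletion. Myl1, the locus that carries the Cre, was at 11420 ± 3268 CPM in CTL muscle, against 5548 ± 1592 CPM in the COX10 KO. In 2 CTL liver libraries, 1 labelled female and 4 labelled male, Xist and Y-linked transcripts went against the labelled sex, whereas the other 30 libraries matched. Hepatocyte transcripts reached 2371 CPM in CTL muscle 2, the shallowest library, against 11.9 to 354.9 CPM in the other muscle libraries. Red cell transcripts reached 11110 CPM in CTL muscle 3 and 15670 CPM in CTL liver 3, against at most 3883 CPM in the other muscle and liver libraries. Muscle fibre markers summed to 666.2 CPM in COX10 KO liver 6 and to 134.8 CPM in COX10 KO liver 4, against at most 34.4 CPM in the other livers. The part of these libraries in the results was not tested beyond leaving each out in turn.

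The members fall into 4 roles. Cd68 (a lysosomal membrane glycoprotein), Ctss (the cysteine protease cathepsin S, which trims antigen in the endosome) and Lyz2 (lysozyme) act in degradation. C1qa, C1qb and C1qc encode the chains of C1q, the recognition molecule of the classical complement pathway. Adgre1 (the F4/80 antigen) and Csf1r (the receptor for CSF1 and IL-34, on which macrophage survival depends) define the lineage. Clec4f and Marco are surface receptors that mark Kupffer cells, the macrophages of the liver. Lyz2 has the close paralog Lyz1 (5.46 ± 2.69 CPM in CTL and 10.1 ± 3.55 CPM in KO muscle), and how the counting split reads between them is not given, so Lyz2 is uncertain in that respect. Ctss shares bases on its own strand with the pseudogene Hmgb1-ps5, and Csf1r with Mir6983 on its strand and Hmgxb3 on the other, with the strand setting of the counting not given.

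On GRCm38 the gene bodies are Cd68 at chr11:69664213-69666153 (minus strand), Ctss at chr3:95526786-95556403 (plus), Lyz2 at chr10:117277331-117282321 (minus), Adgre1 at chr17:57358691-57483527 (plus), Clec4f at chr6:83644542-83656187 (minus) and Marco at chr1:120474538-120505024 (minus), all protein coding. The C1q genes lie next to each other within 18675 bases of chromosome 4 (GRCm38, 136880129 to 136898803, all on the minus strand). Upstream sequence of C1qb and C1qc is shown because these neighbours are described together below, and that of Cd68 because its level in COX10 KO muscle stood apart from that of the other members. The sequences are RefSeq promoter windows (GRCm38.p6), written 5′ to 3′ on the strand of the gene, ending at the transcription start except for C1qc, whose bases within an annotated exon were left out. Capitals mark matches on either strand to GAGGAAGT, a site bound by PU.1, or to TGANTCA, the site bound by AP-1. Shorter matches, such as GAGGAA in the Cd68 window, were not searched for and are not marked.
Cd68: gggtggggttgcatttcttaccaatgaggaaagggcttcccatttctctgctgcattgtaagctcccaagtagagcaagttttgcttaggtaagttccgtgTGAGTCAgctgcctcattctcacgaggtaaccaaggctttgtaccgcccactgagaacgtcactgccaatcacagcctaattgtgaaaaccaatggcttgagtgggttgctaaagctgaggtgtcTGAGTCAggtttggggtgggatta
C1qb: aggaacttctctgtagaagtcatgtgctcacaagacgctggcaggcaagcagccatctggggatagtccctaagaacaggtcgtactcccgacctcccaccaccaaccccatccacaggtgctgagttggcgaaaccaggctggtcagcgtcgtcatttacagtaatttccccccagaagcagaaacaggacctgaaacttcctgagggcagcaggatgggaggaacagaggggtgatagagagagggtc
C1qc: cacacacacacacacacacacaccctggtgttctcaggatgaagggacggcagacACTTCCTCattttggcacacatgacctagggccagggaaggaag
The Cd68 window (chr11:69666171-69666420, minus strand) held TGANTCA at 2 places, starting 149 and 24 bases before the start. The C1qc window (chr4:136893066-136893164, minus strand) held GAGGAAGT on the opposite strand, starting 195 bases before the start, and the C1qb window (chr4:136886201-136886450, minus strand) held neither. Of the 7 members with a 300-base window, Ctss also had GAGGAAGT, across its start. Among all 32851 windows of that length, 3.2% held GAGGAAGT, 7.81% held TGANTCA and 7.15% held CACGTG, the E-box of the MITF and TFE family, which was in none of the 7. These letters describe the windows and were not tested for binding.

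**Figure D1:**
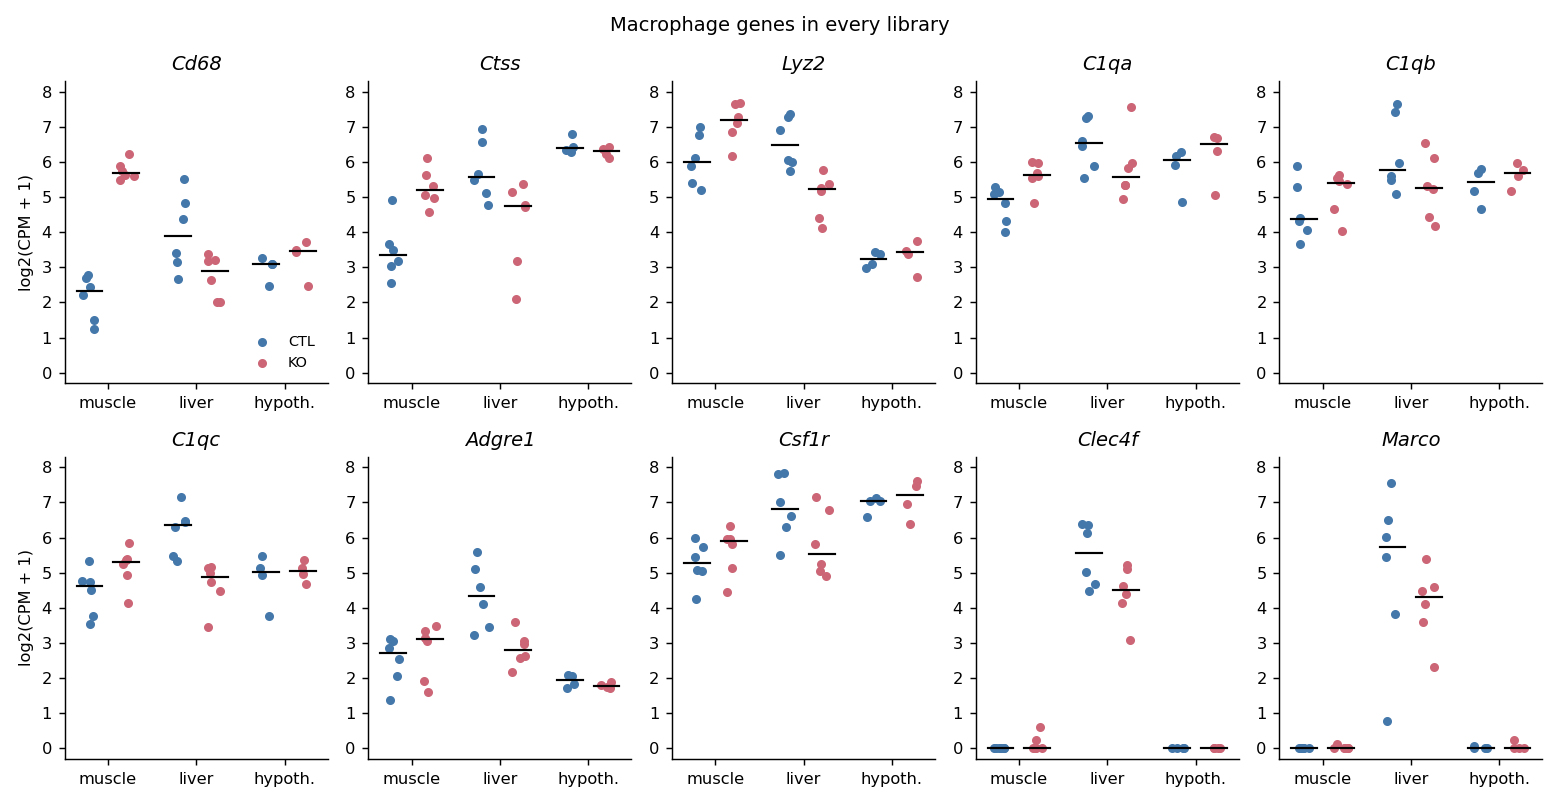
Level of each macrophage gene in every library, as log2(CPM + 1), by tissue; points are libraries of CTL and COX10 KO (6 and 6 in muscle and liver, 4 and 4 in hypothalamus) and bars are medians. The 6 COX10 KO muscle libraries lie above all 6 CTL libraries for Cd68, and Clec4f and Marco are near 0 outside liver.

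In muscle, the degradative members were higher in the COX10 KO than in CTL, with Cd68 by far the most, and the lineage receptors differed by about their standard error. Cd68 was at 1.36, 4.02 and 5.88 CPM (lowest, median and highest of 6 libraries) in CTL muscle and at 43.8, 50.6 and 74.3 CPM in COX10 KO muscle. Every COX10 KO library exceeded every CTL library, and among all genes tested in muscle 4.7% had the groups apart in this direction. The CTL level rested on 82 counts over the 6 libraries, with 1 count in CTL muscle 2. The log2 fold change was 3.83 ± 0.28 (standard error), 14.2-fold, and 0.21% of the 10950 genes tested had a higher one.

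Ctss was at 4.81, 9.15 and 29.1 CPM in CTL muscle and at 22.97, 35.8 and 68.5 CPM in COX10 KO muscle. CTL muscle 2 held the highest CTL value, and 5 of the 6 COX10 KO libraries lay above it. The log2 fold change was 1.99 ± 0.37. Lyz2 was at 36.0, 62.7 and 125.5 CPM in CTL and at 71.4, 146 and 205.3 CPM in COX10 KO, so that the groups overlapped, with 4 libraries of the COX10 KO above every CTL one. Its log2 fold change was 1.08 ± 0.33.

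The complement genes differed less. C1qa was at 14.96, 30.1 and 38.2 CPM in CTL muscle and at 27.4, 48.8 and 62.9 CPM in COX10 KO muscle, with 5 of the COX10 KO above every CTL library, and a log2 fold change of 0.86 ± 0.25. C1qb and C1qc had log2 fold changes of 0.55 ± 0.37 and 0.73 ± 0.33, and their groups overlapped, with 0 and 3 libraries of the COX10 KO above every CTL one. Adgre1 and Csf1r had log2 fold changes of 0.39 ± 0.42 and 0.37 ± 0.32, each within about 1 standard error of 0. Csf1r was at 18.2, 37.8 and 61.9 CPM in CTL and at 20.9, 58.5 and 78.9 CPM in COX10 KO muscle. A single COX10 KO library lay above all CTL values of Csf1r.

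In edgeR's quasi-likelihood fit, Cd68, Ctss, C1qa and Lyz2 were called higher in COX10 KO muscle, 4 of the 8 members tested, beside 7.93% of all genes. Because the choice used this contrast, nothing is read from that count. Cd68 and Ctss were the only members called in the fits that each left out 1 of 7 libraries, CTL muscle 1, 5 or 6 or COX10 KO muscle 2, 4, 5 or 6. Clec4f and Marco had 0 counts in all 6 CTL muscle libraries, which allows at most 0.14 CPM for either gene over the group. In COX10 KO muscle Clec4f had 2 counts, in 2 libraries, and Marco had 1. Neither gene was tested in muscle.

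Cd68 and Ctss also differed in muscle when set against Csf1r of the same library. Per Csf1r count, CTL muscle had 0.029, 0.099 and 0.32 Cd68 counts (lowest, median and highest of 6 libraries), and COX10 KO muscle had 0.77, 0.9 and 2.76. The ranges did not overlap. In liver the ratio was 0.099 to 0.2 in CTL and 0.059 to 0.15 in COX10 KO, and in hypothalamus it was 0.048 to 0.063 and 0.053 to 0.079. The median ratio of C1qa to Csf1r was 0.72 in CTL and 1.07 in COX10 KO muscle, with overlapping ranges of 0.59 to 0.83 and 0.6 to 1.36. The ratio of Ctss to Csf1r ran from 0.17 to 0.47 in CTL and from 0.49 to 1.12 in COX10 KO muscle, also without overlap. That of Lyz2 ran from 1.13 to 2.265 and from 2.253 to 3.42, with a narrow overlap. The choice used the muscle contrast, so these ratios are a description. The share of all genes with such ratios apart was not computed.

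**Figure D2:**
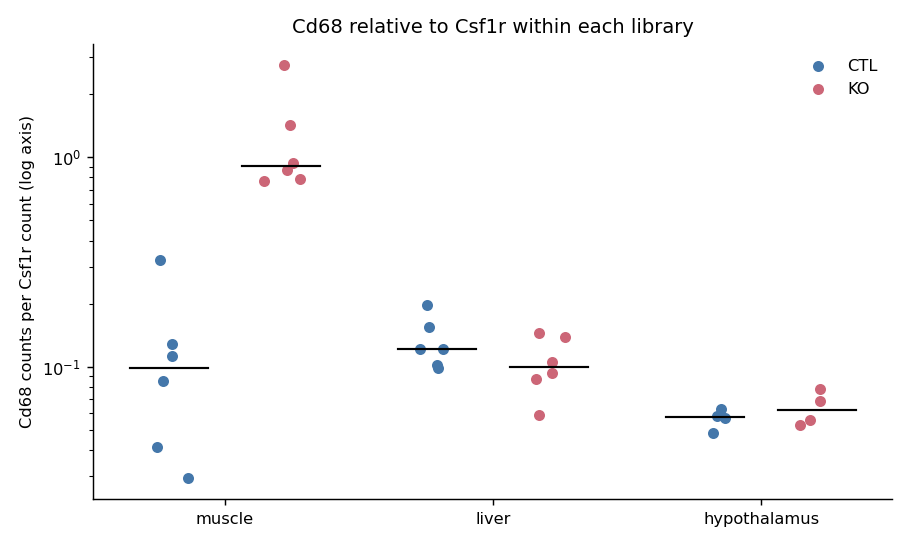
Cd68 counts divided by Csf1r counts within each library, on a log axis, for CTL and COX10 KO in the 3 tissues; points are libraries and bars are medians. COX10 KO muscle lies at 0.77 to 2.76 and every other group at or below 0.32.

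In liver all 10 members were lower in the COX10 KO than in CTL by the fitted values, the Kupffer cell receptors among them, and 0 of 10 was called by edgeR's quasi-likelihood test. Adgre1 was at 8.45, 19.6 and 47.4 CPM (lowest, median and highest of 6 libraries) in CTL liver and at 3.54, 6.03 and 11.2 CPM in COX10 KO liver. CTL liver 3 and 2 held the highest CTL values and 5 COX10 KO libraries lay below all CTL libraries. The log2 fold change was -1.71 ± 0.41. Csf1r was at 44.1, 113 and 225.7 CPM in CTL and at 28.8, 46.3 and 140.4 CPM in COX10 KO, with a log2 fold change of -1.04 ± 0.39. The groups of Csf1r overlapped.

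C1qc was at 39.5, 81.5 and 141 CPM in CTL liver and at 9.91, 28.5 and 34.5 CPM in COX10 KO liver, with a log2 fold change of -1.54 ± 0.35. It was the only member with every COX10 KO library below every CTL library, beside 0.254% of all genes. C1qb had a log2 fold change of -0.99 ± 0.37. That of C1qa was -0.59 ± 0.40, and it was -1.02 without COX10 KO liver 3. The COX10 KO liver 3 library, with 674311 counts the shallowest in liver, held C1qa at 187 CPM from 113 counts, against 29.7 to 61.4 CPM in the other COX10 KO livers, and Ctss at 3.3 CPM. In that library the C1q chains did not move together, since C1qc was at 9.91 CPM.

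Lyz2 had a log2 fold change of -1.54 ± 0.35 in liver, Cd68 of -1.5 ± 0.49 and Ctss of -1.29 ± 0.46. Clec4f was at 21.5, 49.8 and 81.9 CPM in CTL liver and at 7.46, 21.6 and 36.4 CPM in COX10 KO liver. Its log2 fold change was -1.18 ± 0.38. Marco was the most variable member, at 0.73, 53.1 and 188 CPM in CTL and at 4.02, 18.8 and 41.3 CPM in COX10 KO, with a log2 fold change of -1.71 ± 0.74. CTL liver 6, with 0.73 CPM, was below all COX10 KO livers for Marco.

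Of all 9072 genes tested in liver, 0.0772% were called lower and 0.011% higher, 8 genes in all. In edgeR 9 of the 10 members had an unadjusted p under 0.05, beside 419 of all 9072 genes. DESeq2 called C1qc, Lyz2 and Adgre1, 3 of 10, each lower, beside 39 lower of the 11187 genes it tested. Without the library labelled CTL liver 1, edgeR called Adgre1. Since the choice used this contrast, these counts are not evidence for the members. Without any 1 of the 12 liver libraries, every member stayed below 0, and Marco ran from -2.03 to -1.27. Endothelial markers, which sit beside Kupffer cells in the sinusoid, had a median log2 fold change of 0.03 in liver, with 7 of 9 above 0.

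**Figure D3:**
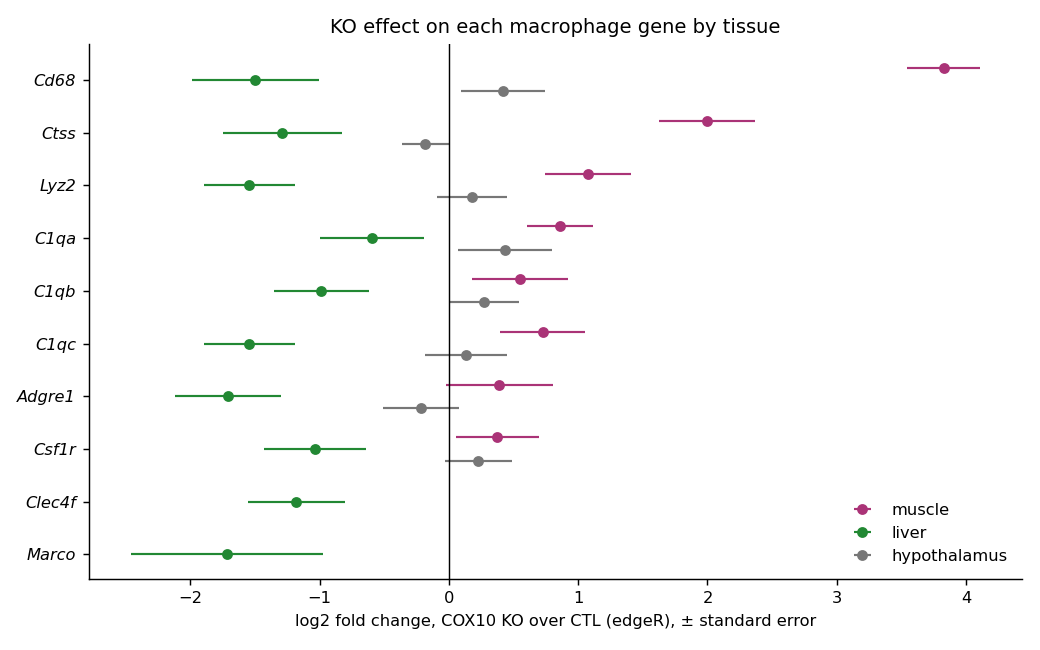
log2 fold change of COX10 KO over CTL for each member in muscle, liver and hypothalamus, from edgeR, with bars of 1 standard error. All values lie above 0 in muscle and below 0 in liver, and those in hypothalamus lie between -0.22 and 0.43.

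The difference between the KO effects, muscle minus liver, came from 1 fit of both tissues. On the log2 scale it was 5.28 ± 0.60 for Cd68, 3.20 ± 0.64 for Ctss, 2.55 ± 0.53 for Lyz2 and 2.21 ± 0.52 for C1qc. These 4 were called higher in muscle, beside 1.07% of all 11132 genes tested. For the other members counted in both tissues it was 1.37 ± 0.54 (Csf1r) to 2.06 ± 0.62 (Adgre1), and these were not called. The choice fixed the direction, so these values describe its size alone.

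Hypothalamus holds microglia, its resident macrophages, and the choice did not use this tissue. No member was called there by edgeR, 0 of 8 tested, beside 0% of the 13504 genes, and none passed an unadjusted p under 0.05 or was called by DESeq2. Csf1r, at 94.2, 131.4, 137.9 and 129.5 CPM in CTL, was at 82, 123.5, 177 and 193.9 CPM in COX10 KO, and the ranges overlapped. Ctss was at 76.4, 80.4, 84.4 and 109.3 CPM in CTL and at 67.5, 73.8, 82.1 and 85.4 CPM in COX10 KO. The C1qa values of 28.2, 59.3, 76.9 and 71.1 CPM in CTL faced 32.3, 78.8, 103 and 101.4 CPM in COX10 KO. The log2 fold changes ran from -0.22 ± 0.30 (Adgre1) to 0.43 ± 0.36 (C1qa), with adjusted p = 1 for every member in edgeR's quasi-likelihood test.

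In the exact two-sided permutation test over the 8 hypothalamus libraries, p ranged from 0.286 (Adgre1) to 0.8 (C1qc) and the smallest p this design allows is 0.0286. In hypothalamus, same-numbered libraries of CTL and COX10 KO correlated in their deviations from the group mean, with r of 0.81, 0.20, 0.40 and 0.31. Numbers 3 and 4 had a higher r, 0.47, with another number than with their own, so the pairing is uncertain. Within same-numbered pairs C1qa was higher in the COX10 KO in 4 of 4, by 4.15, 19.5, 26.1 and 30.4 CPM. Ctss was lower in 4 of 4, by -8.91, -6.58, -2.33 and -23.9 CPM. The exact two-sided test over sign flips within pairs gave p = 0.125 for both, the smallest that 4 pairs allow, so this design cannot reach 0.05. For the other members p was 0.25 to 0.625 by that exact test. With the number as a block in edgeR no member was called, while 2 genes of all tested were. Clec4f had no count and Marco 1 in either group, so neither was tested.

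The levels in CTL tissues are given next, as a description. All 8 members counted in both tissues had a positive log2 difference of liver over muscle. It was 2.64 ± 0.41 for Ctss, 2.30 ± 0.49 for Cd68, 2.2 ± 0.42 for Adgre1, 1.84 ± 0.36 for Csf1r, 1.88 to 1.94 for the C1q genes and 0.61 ± 0.33 for Lyz2. Beside 26.9% of all 14212 genes in this edgeR fit, all of these but Lyz2 were called higher in liver, as were Clec4f and Marco, which passed the filter through liver alone. In labelled males only, which include CTL liver 4 with its female sex transcripts, the calls of Cd68 and Marco were lost. Without both CTL livers of unmatched sex that of Marco was.

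Clec4f was at 39.3 CPM over the pooled CTL livers, at least 281-fold higher than CTL muscle taken at the floor of 3 counts over the group. Marco was at 38.1 CPM, at least 272-fold higher by the same floor. The library labelled CTL liver 1 is the deepest of the pool, and without it the values were 49.9 CPM for Clec4f and 66.5 CPM for Marco, at least 356-fold and 475-fold over the floor.

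Against CTL hypothalamus, the log2 difference of CTL liver was 4.42 ± 0.45 for Lyz2, 3.77 ± 0.50 for Adgre1, 1.56 to 2.22 for Cd68 and the C1q genes, 0.92 ± 0.39 for Csf1r and 0.29 ± 0.40 for Ctss. Beside 29.1% of all genes, all of these but Ctss were called higher in liver, as were Clec4f and Marco, again through liver alone. Csf1r was no longer called in labelled males only, nor by DESeq2, with relative log expression scaling or with no filter. Hypothalamus was all male, but CTL liver 4, a labelled male, had female sex transcripts, so that comparison is matched by label alone. It was also lost without any of the 4 CTL hypothalamus libraries, without CTL liver 2, 3 or 4 and without CTL muscle 4 or 5, which share the fit. Marco was lost in labelled males only and without both CTL livers of unmatched sex.

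Hypothalamus was higher than muscle for Ctss, by 2.36 ± 0.43, and Csf1r, by 0.93 ± 0.38, beside 37.2% of all genes. It was lower for Lyz2, with -3.81 ± 0.44, and Adgre1, with -1.57 ± 0.49, beside 25.8% of all genes. The call of Csf1r was lost without CTL muscle 1, 4, 5 or 6 or any of the 4 CTL hypothalamus libraries. The median log2 difference over all genes was 0.28 for hypothalamus minus muscle and -0.25 for liver minus hypothalamus, against which these values are to be set.

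The C1q genes did not differ between CTL hypothalamus and CTL muscle beyond their spread, with log2 differences of 0.37 ± 0.36 (C1qa), -0.04 ± 0.51 (C1qb) and -0.34 ± 0.40 (C1qc). For Cd68 and the C1q genes liver was thus highest, and muscle and hypothalamus did not differ beyond their spread. For Lyz2 liver and muscle did not differ beyond theirs, and hypothalamus was lowest. Of the 12 microglia genes, 10 were higher in CTL hypothalamus than in CTL muscle and 0 lower, beside 37.2% and 25.8% of all genes.

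Between the labelled sexes, no member passed the test in muscle or liver. In muscle 0 of 8 was called by edgeR, beside 0.0548% of all genes, none at an unadjusted p under 0.05 and none by DESeq2. In liver 0 of 10 was called by edgeR and by DESeq2, beside 0% of all genes in edgeR. An unadjusted p under 0.05 in edgeR held for 3, beside 880 of all 9072 genes. The 2 CTL livers with unmatched sex transcripts entered that comparison under their labels. Without both, C1qb, Csf1r and Clec4f were called higher in females, 3 of 10 beside 2.67% of all genes. With sex read from the transcripts, an alternative to the labels, 6 members were called higher in females (Cd68, C1qb, Adgre1, Csf1r, Clec4f and Marco), beside 9.61% of all genes.

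In those terms C1qb was higher in females by 1.61 ± 0.32 on the log2 scale (adjusted p = 0.00726) and Clec4f by 1.25 ± 0.27 (adjusted p = 0.00978), both in edgeR. Clec4f was at 80.7 and 81.9 CPM in CTL liver 2 and 3, and at 24.5 and 21.5 CPM in CTL liver 5 and 6. The library labelled CTL liver 1 (female) was at 31.2 CPM and that labelled CTL liver 4 (male) at 68.4 CPM. For C1qb the same libraries were at 172 and 200 CPM, at 47 and 32.7 CPM, and at 43.4 and 61.3 CPM. The KO effects on the members in liver were between -0.56 and -1.58 with this sex term, and no member was called.

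**Figure D4:**
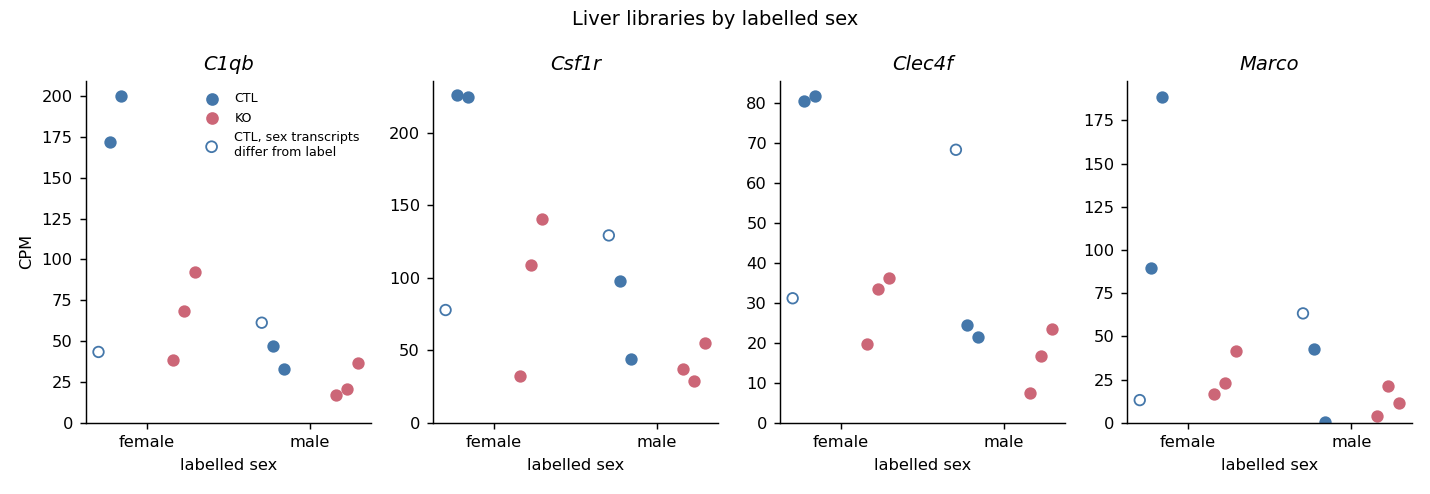
CPM of C1qb, Csf1r, Clec4f and Marco in each liver library by labelled sex and genotype (3 libraries per group); open symbols are the 2 CTL libraries whose sex transcripts differ from the label. The labelled female drawn open lies below both other CTL females in every panel.

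The KO effect in muscle was set side by side in the sexes, whose libraries all matched their labels. In males the log2 fold change was 1.54 for C1qc, 1.35 for C1qb, 1.89 for Lyz2, 2.86 for Ctss and 1.09 for Csf1r, and in females -0.13, -0.31, 0.21, 1.08 and -0.40. Lyz2 was at 67.8, 36.0 and 41.1 CPM in CTL males and at 138, 200.3 and 205.3 CPM in COX10 KO males. In females it was at 57.6, 125.5 and 107 CPM in CTL and at 114, 154 and 71.4 CPM in COX10 KO. The difference, females minus males, was -1.63 ± 0.51 for Lyz2 and -1.61 ± 0.52 for C1qc. For C1qa it was -0.75 ± 0.49 and for Adgre1 -0.99 ± 0.81. Cd68 stood apart with 4.27 in females and 3.52 in males, and a difference of 0.79 ± 0.56.

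No member passed the test of that difference, 0 of 8 by edgeR and by DESeq2, beside 0% of all 12065 genes. At an unadjusted p under 0.05 in edgeR it held for 5 of the 8, and for 459 of all genes. The smallest adjusted p was 0.9999. Hepatocyte markers moved with this difference, 6 of 6 below 0 with a median of -4.48, as did red cell markers, 5 of 5 below 0 with a median of -1.87, and their part in it was not tested. Leaving out CTL muscle 2, the female library with hepatocyte transcripts, gave -1.42 for Lyz2 and -1.70 for C1qc. Without COX10 KO muscle 3, also female, the values were -1.36 and -1.32, the smallest in size with any library left out. In liver the difference between labelled sexes passed for 0 of 10 by edgeR and by DESeq2, beside 0% of all genes, with none at an unadjusted p under 0.05.

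Libraries of 1 genotype and sex still varied, and most members varied together. Over the 12 muscle libraries, taken as deviations from the mean of the same genotype and labelled sex, the median Pearson r of the 28 pairs of tested members was 0.57. Each of C1qa, Lyz2, Csf1r, C1qb and C1qc had r of 0.79 to 0.95 with the mean of the other members. Ctss had r = 0.60 and Adgre1 r = 0.34. Cd68 was lowest with r = -0.10, which ran from -0.42 to 0.03 when each library was left out in turn. The CTL muscle libraries held 1 to 46 Cd68 counts, and the part of counting error in this r was not tested. In liver Cd68 had r = 0.92 (0.85 to 0.95), and 0.81 with sex read from transcripts. The points share library depth, and r of the members' mean with log2 total counts was 0.02 in muscle and -0.65 in liver, where it was 0.17 with sex read from transcripts.

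The neighbours C1qa and C1qc had r = 0.89 in muscle and -0.07 in liver, and C1qa and C1qb had 0.74 and 0.83. The shallow COX10 KO liver 3 held C1qa at 187 CPM and C1qc at 9.91 CPM, the latter from 6 counts. The r of C1qa and C1qc without that library was not computed, so no difference between the tissues is read from it. In liver the median over 45 pairs was 0.65, and 0.42 with sex read from transcripts. The 8 genes most like the members' mean in liver, of 8707 compared over 12 libraries, were Nrros, Entpd1, Nipal1, Cfp, Vsig4, Rsad2, Clec4a1 and Tbx3os1, with r of 0.97 to 0.90. With sex read from transcripts they were Trbc2, Grpel2, Nrros, Gna12, Max, Vcam1, Slc22a5 and Vsig4, with r of 0.94 to 0.88, so that only Nrros and Vsig4 were in both. In muscle they were Zscan21, Sbf1, Poc5, Ier5, Hspa1b, Rbm22, Ptafr and Nudt12, with r of 0.94 to 0.88, of 10285 compared.

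The other genes of the pathway were taken from 10 lists of 140 macrophage-related genes, of which 91 were tested in muscle. Some list genes lay far above the members. In liver the mean log2 CPM was 14.8 for Apoe and 12.5 for C3, against 6.65 for Csf1r. In muscle it was 8.1 for Maf, against 5.5 for Csf1r. Which cells the counts of the list genes came from was not tested. Of the 91, 13 were called higher and 4 lower in COX10 KO muscle, beside 7.93% and 6.97% of all genes. The median log2 fold change of the 91 was 0.32, against 0.01 over all genes. Of 22 lysosome and phagosome genes tested, 4 were higher: Ctsl (cathepsin L) by 2.47 ± 0.37, Ncf1 (an NADPH oxidase subunit) by 2.03, Npc2 by 0.87 and Lamp2 by 0.67 on the log2 scale. Lamp1 and Psap, the most abundant of that list, had -0.12 ± 0.19 and -0.34 ± 0.17. The list median was 0.22. Of the 10 shared myeloid genes tested all lay above 0 and 2 were called, the phagocyte perforin Mpeg1 with 2.19 ± 0.52 and the Fc receptor Fcgr3 with 1.25 ± 0.37.

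Of 9 lipid-associated macrophage genes 3 were higher, Lgals3 (galectin-3) by 2.55, Gpnmb by 1.23 and Cd63 by 1.21. The abundant Apoe and Lpl of that list had -0.08 ± 0.45 and -0.25 ± 0.29. Also called higher were Hmox1 (heme oxygenase 1, 2.89) of 7 Kupffer cell genes, Runx1 (1.5) of 10 lineage factors, C3ar1 (the C3a receptor, 1.51) of 8 complement genes and Ccl9 (1.72) of 3 monocyte genes. Lower were Maf (-2.02 ± 0.40), Cbr2 (-1.79 ± 0.26), Folr2 (-1.29) and Nr1h3 (-0.93). Cbr2 and Folr2 belong to the resident macrophage list, of which 0 of 10 was higher. No microglia gene of 6 or antigen presentation gene of 6 was called, with medians of -0.02 and 0.58.

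In COX10 KO liver 0 of 83 tested genes of these lists was called by edgeR, beside 0.011% higher and 0.0772% lower over all genes. In edgeR 20 had an unadjusted p under 0.05, beside 419 of all 9072 genes. DESeq2 called 7, all lower, beside 39 lower of the 11187 genes it tested. The median was -0.27 against -0.02 over all genes, and 65 of 83 lay below 0. All 9 Kupffer cell genes lay below 0, with a median of -1.08, with Cd5l at -1.59 ± 0.48, Id3 at -1.41 ± 0.49 and Nr1h3 at -0.17 ± 0.32, as did all 5 antigen presentation genes, with a median of -1.12. H2-Eb1 and H2-Aa, chains of MHC class II, had -1.33 ± 0.28 and -1.16 ± 0.28. Lysosome and phagosome genes had a median of -0.12, lipid-associated genes of -0.11, complement genes of -0.38, lineage factors of -0.76, shared myeloid genes of -1.01, monocyte genes of -0.35, microglia genes of -0.16 and resident macrophage genes of 0.07. In COX10 KO hypothalamus 0 of 82 was called by edgeR and DESeq2, with a median of -0.0012. An unadjusted p under 0.05 in edgeR held for 1, beside 211 of all 13504 genes. The 12 microglia genes had a median of -0.07, with Cx3cr1 (the fractalkine receptor) at 0.24 ± 0.23.

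**Figure D5:**
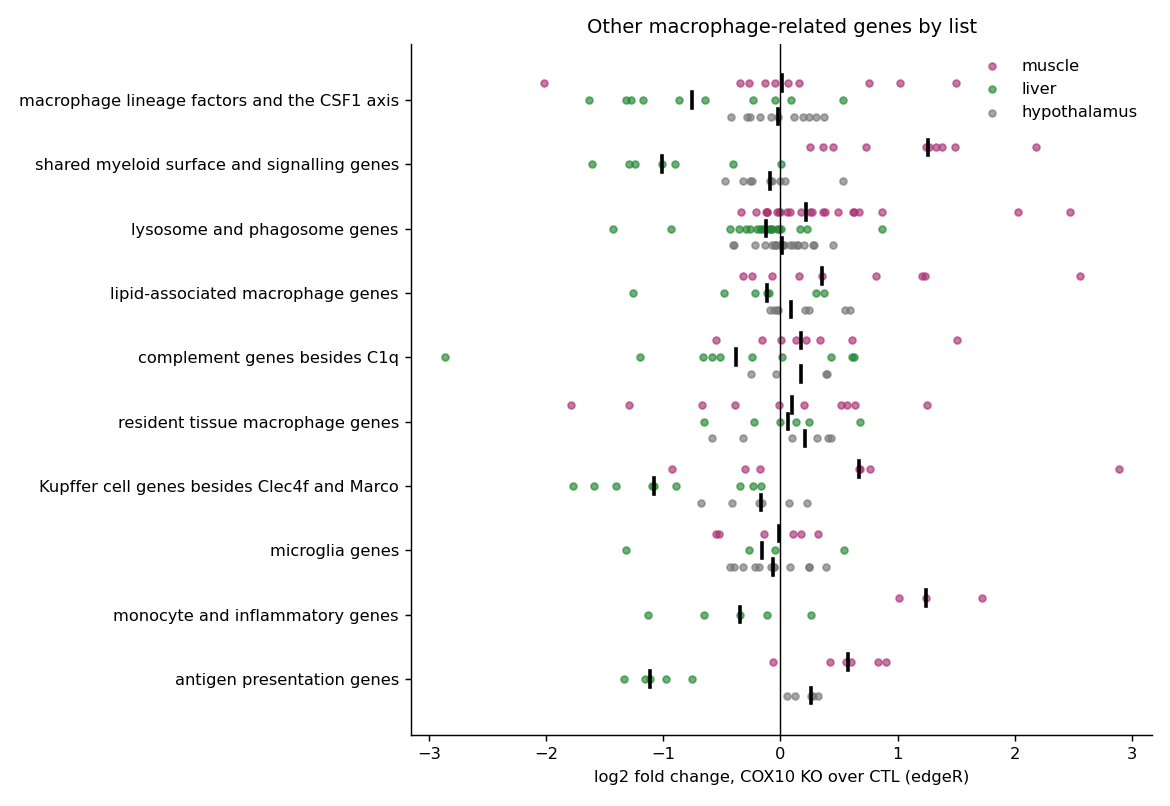
log2 fold change of COX10 KO over CTL (edgeR) for each tested gene of the 10 other macrophage-related lists; points are genes coloured by tissue and black bars are list medians. Kupffer cell and antigen presentation genes lie below 0 in liver, and shared myeloid genes above 0 in muscle.

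Markers of other cells moved as follows. In muscle the tested medians were -0.26 for 7 endothelial, -0.24 for 9 fibroblast, -1.74 for 5 red cell, -1.5 for 4 hepatocyte and -0.82 for 7 muscle fibre markers, with 1 called lower among each of the endothelial, fibroblast and fibre markers. Neutrophil, lymphocyte and neuron markers were too low to test in muscle. Neutrophil markers summed to 0.53 to 54.6 CPM in CTL and 1.29 to 4.61 CPM in COX10 KO muscle, and lymphocyte markers to 0.45 to 7.28 and 0.33 to 1.23 CPM. The neutrophil markers Camp, Cxcr2 and Ngp were at 0 in every muscle library, CTL and KO. In liver, neutrophil markers summed to 3.21 to 124 CPM in CTL and 4.55 to 14.2 CPM in the COX10 KO. In liver the medians were -1.04 for 5 red cell, 0.30 for 6 hepatocyte and -0.08 for 7 fibroblast markers, with 0 called by edgeR. Their part in the results was not tested.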

How the data were processed

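Counts per gene from 3′ tag RNA sequencing (QuantSeq) of muscle, liver and hypothalamus were used as deposited. According to the methods, the authors trimmed single-end reads with BBDuk, aligned them with STAR 2.5.0a to GRCm38 and made whole-number counts with HTSeq 0.6.1, and the strand setting is not given in the sources used here. All 32 libraries were used, no 2 were identical, and 0 columns were left out. Of the 55401 identifiers, 55141 matched a symbol.

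Counts were tested with edgeR 4.0.16 (R 4.3.3) by the quasi-likelihood test, with TMM scaling, the filterByExpr filter, a term for labelled sex in the muscle and liver fits, and Benjamini-Hochberg adjustment over all genes tested (call at adjusted p under 0.05). Library totals are given with the results, and few counts per gene limit the precision in the shallow libraries. Levels are CPM over TMM-scaled totals within a tissue. Correlations used log2 CPM with a prior count of 2. Exact permutation tests used scipy 1.17.1 (Python 3.11.15). Intervals and floors (3 counts) cover counting error only. On simulated counts for the same libraries, edgeR recovered 89% of 4-fold and 34% of 2-fold changes in muscle (10950 genes), 83% and 9% in liver (9072 genes), and 94% and 44% in hypothalamus (13504 genes), with false calls at 5.38%, 10.7% and 9.21%. For DESeq2 on the same simulated counts, 14.2% of the calls were false in muscle, 24.6% in liver and 15.3% in hypothalamus.

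The members and lists were chosen with earlier results of these data known. From each macrophage-related list, the text names genes among the 3 of highest level in the tissue and all genes of a count of 5 or fewer. The genes most like the members were the 8 of highest correlation, without predicted (Gm) or RIKEN symbols. Same-numbered hypothalamus libraries had r of 0.2 to 0.81 for the 4 numbers. Numbers 3 and 4 had a higher r, 0.47, with another number than with their own, so this pairing is uncertain. The replicate block is an alternative there, with its source in the data and not the labels. Alternatives were DESeq2 1.42.0, relative log expression scaling, other filters, thinning, 1 sex, no sex term, the replicate block and each library left out.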

Additional observations from a re-analysis of the deposited data

Results flagged for a closer look

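Of 52 groups of 4 to 6 libraries examined over the members, 2 held a library far from the others by Dixon's criterion, where chance gives about 1 in 20 groups. Ctss was at 29.1 CPM in CTL muscle 2, from 16 counts, with the next CTL library at 11.6 CPM. C1qa was at 187 CPM in COX10 KO liver 3, from 113 counts, with the next COX10 KO library at 61.4 CPM. Both are the shallowest library of their tissue.

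The KO effect differed between muscle and liver in the edgeR fit for Cd68 (5.28 on the log2 scale), Ctss (3.20), Lyz2 (2.55) and C1qc (2.21). The members were chosen on this contrast, so the values describe them and lend no support. Each of these 4 was called in all 24 fits that left out 1 library.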

How the results depend on the processing

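Over single members, the KO log2 fold change was refitted 165 times in muscle, 215 times in liver and 103 times in hypothalamus, and its sign changed in 4, 0 and 3 of them. The 4 in muscle were C1qb, C1qc, Adgre1 and Csf1r in females only. In hypothalamus C1qc was -0.16 without CTL 1 and -0.01 without KO 3 (range 0.37 down to -0.16 over libraries left out), and Lyz2 was -0.0065 without KO 3 (range up to 0.36). Depth limits the members with few counts in a group, such as Cd68 with 82 in CTL muscle and 72 in KO liver and Adgre1 with 45 in KO hypothalamus. Causes were not tested where none is given.

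In muscle, 4 members were called. With at least 10 counts in every library, a filter that removes Cd68 and Ctss, 2 were, in females only 1, in males only 5 (C1qb and C1qc in, C1qa out), and with each library left out 2 to 4. Same-numbered libraries did not pair in muscle or liver (r from -0.18 to 0.24 and from -0.54 to 0.51), and with the replicate block 2 members were called in muscle and 0 in liver. The block called 607 genes higher and 437 lower in muscle, against 868 and 763 without it, and 2 and 0 in hypothalamus, against 0 and 0, and changed no other member's call. In liver, where 0 members were called, DESeq2 called 3, no filter gave 5 and libraries left out 0 to 1 (Adgre1 without CTL 1). Of all genes in liver, 1 was higher and 7 lower, against 23 and 39 by DESeq2, 57 and 118 with no filter, and 5 and 15 with sex read from transcripts.

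For sex in liver, 0 members became 1 with no filter, 6 with sex read from transcripts and 3 without both CTL livers of unmatched sex, and of all genes 45 were higher and 44 lower with no filter, against 0 and 0. For sex in muscle no filter gave 104 and 52 genes, against 2 and 4, and DESeq2 5 and 11. For the KO effect in females minus males it gave 46 and 115 in muscle and 8 and 24 in liver, against 0 and 0, and DESeq2 gave 1 and 3, and 1 and 0. For muscle minus liver, 4 members became 1 with at least 10 counts in every library and 8 with no filter, and of all genes DESeq2 called 296 higher and 419 lower and no filter 324 and 266, against 119 and 117. The 9 members higher in CTL liver than in CTL muscle or hypothalamus include Clec4f and Marco, which passed the filter through liver alone. With at least 10 counts in every library 4 and 4 were left.

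Of the other macrophage-related genes 17 were called in muscle, against 6 with at least 10 counts in every library, 5 in females only, 8 with muscle libraries thinned to at most 1734571 counts and 27 with no filter. With libraries left out the count ran from 10 to 24, at 10 without CTL 6 and at 11 without CTL 1 or 5 or KO 2 or 5. In liver 0 became 7 with DESeq2, 10 with no filter and 1 without both CTL livers of unmatched sex. The median r among members was 0.51 to 0.65 in muscle and 0.48 to 0.82 in liver over libraries left out, and 0.42 in liver with sex read from transcripts. Reading sex from transcripts, leaving libraries out of r or of the pooled livers and the sign flips within pairs were chosen after seeing the data.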
